A study of Mus musculus with 40 samples.

Results

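The T cell receptor loci were described in B-lineage cells by the methylation of 696 tiles of 100 bp that lie inside 3 windows of the mm9 mouse genome, of 971845 tiles in the whole table. The windows were chr14:53020000-54850000 for the joint Tcra/Tcrd locus (510 tiles), chr6:40835000-41510000 for Tcrb (133 tiles) and chr13:19260000-19450000 for Tcrg (53 tiles). Members were chosen by position alone. The assay, RRBS (reduced representation bisulfite sequencing), sequences bisulfite-treated restriction fragments of the genome that are rich in CpG sites, and gives each tile a methylation level, the share of its cytosine calls that were methylated.

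Follicular B cells (FoB, the mature recirculating population) and pro-B cells (the early stage at which immunoglobulin heavy chain genes rearrange) were taken from C57/bl mice of 6 to 8 weeks, in 4 genotypes each. Double-knockout (DKO) mice lacked both Tet2 and Tet3, Tet2KO mice lacked Tet2, Tet3KO mice lacked Tet3, and wild-type (WT) mice lacked neither. Tet2 and Tet3 oxidise 5-methylcytosine, a step towards its removal. Per the labels the knockout is inducible and driven by the Mb1 promoter, which is active in B-lineage cells, so cells of other lineages in the mice should keep both genes. Each of the 8 groups had 3 libraries, all Tet2KO libraries came from females and the other groups held both sexes. All Tet3KO libraries came from mice of 7 weeks, and the WT libraries from mice of 6 or 8 weeks. Whether each library of a group was a different mouse is not stated. The 3 WT libraries of each stage all differed in sex or age, so they came from different mice. In every other group some libraries differed in sex or age. The p-values thus reflect a spread among libraries that includes differences between mice and may be partly technical. The deletion of Tet2 and Tet3 and the identity of the sorted cells could not be checked with these levels.

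T cell receptor genes are assembled from variable (V), diversity (D), joining (J) and constant (C) segments by the RAG recombinase, which also assembles immunoglobulin genes. The complete rearrangement of T cell receptor genes belongs to developing T cells in the thymus, so in B-lineage cells these loci stand largely in their germline order. DNA methylation is commonly found at antigen receptor loci that are not recombining, and loss of methylation accompanies the opening of such a locus. In the RefSeq annotation of the GRCm38.p6 assembly the Tcra/Tcrd locus holds 136 V segments, 2 D, 62 J and 2 C, the Tcrb locus holds 35 V, 2 D, 14 J and 2 C, and the Tcrg locus holds 7 V, 0 D, 4 J and 4 C. That assembly differs from mm9, so tiles were not assigned to segments, and each window was divided into 4 equal sections, numbered from its low-coordinate end, to give positions. In the annotation's gene order the high-coordinate end of Tcrb holds the trypsinogen genes, the D, J and C clusters and Trbv31, while that of Tcra/Tcrd holds the Trdd, Trdj, Trdc, Traj and Trac segments, followed by the genes Dad1 and Abhd4.

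The windows were thinly covered. Of the 696 tiles, 149 had no value in any library, and 117 were tested because every group had values from at least 2 of its 3 libraries, 92 in Tcra/Tcrd, 17 in Tcrb and 8 in Tcrg. Tiles were also sparser than in the neighbouring sequence, with 0.279 tiles per kb in the Tcra/Tcrd window against 0.767 in the 2 flanking windows of the same length, 0.197 against 0.239 for Tcrb, and 0.279 against 0.326 for Tcrg. Read counts are not in the table and the depth of each level is unknown. As a stand-in for depth, the tiles with values numbered 411441 to 608149 in the follicular libraries. In the pro-B libraries they numbered 273728 to 631415, except in Tet3KO library 8, which had 24600 tiles and 6 in the T cell receptor windows. That library was left out of all locus levels, so pro-B Tet3KO has n = 2 there, with both remaining libraries from males.

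The T cell receptor loci were mostly methylated in both stages and all genotypes. Of the 117 tested tiles, 90 (76.9%) had a mean level of at least 80% over the 8 groups and 5 were under 20%, with a median of 90.9%. Over the 200813 autosomal tiles tested in the same way, 32.9% were at 80% or more and the median was 7.61%. The untested members that had a value were high too: the median level was 95.7% for 331 Tcra/Tcrd tiles, 94.3% for 70 Tcrb tiles and 96.8% for 29 Tcrg tiles.

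The 3 loci were not alike. In Tcra/Tcrd 76 of 92 tested tiles (82.6%) stood at 80% or more, against 26.4% of the tested tiles in its flanks, which are rich in unmethylated tiles (median 2.74%). In Tcrg 7 of 8 tested tiles stood at 80% or more, close to the 90.5% of its flanks. Tcrb differed in that 9 of its 17 tested tiles lay between 20 and 80%, 7 were higher and 1 was lower, where 11.6% of all tested autosomal tiles and 8.77% of those in its own flanks were intermediate.

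**Figure D1:**
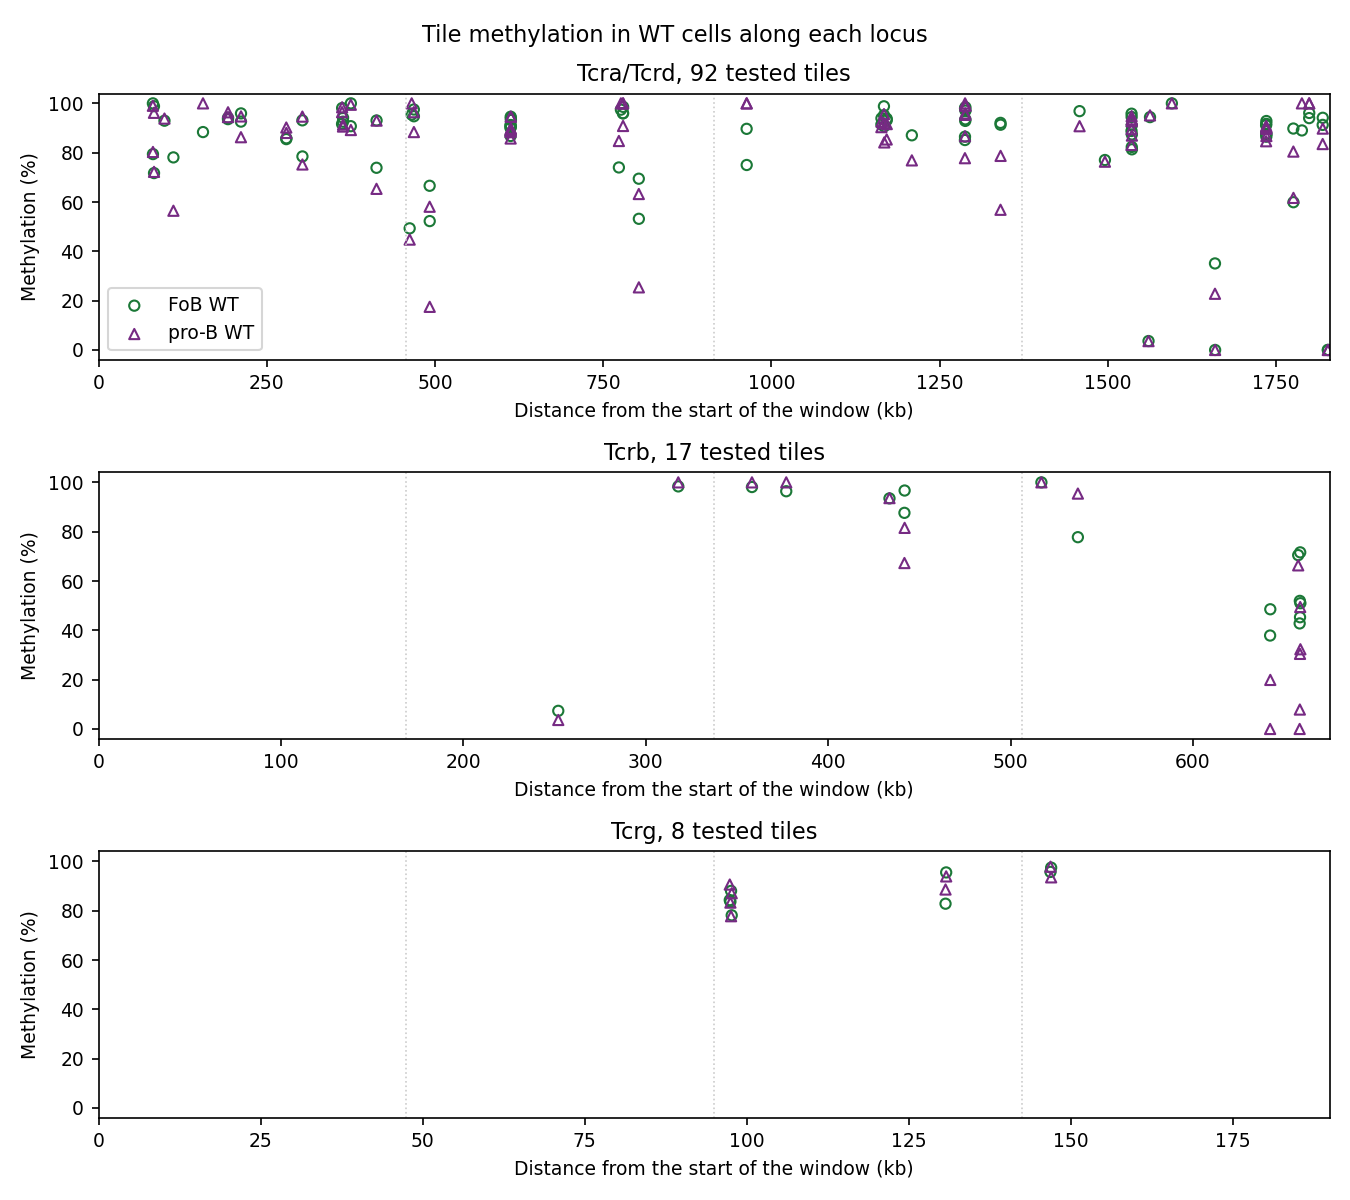
Methylation level (%, vertical axis) of each tested tile in WT cells against its distance in kb from the start of the window, in 3 panels for Tcra/Tcrd, Tcrb and Tcrg. Circles are means of the follicular WT libraries, triangles are means of the pro-B WT libraries, and dotted lines mark the 4 sections. Most tiles lie near the top in both stages, and 8 of the 9 intermediate Tcrb tiles sit in section 4 at the high-coordinate end (the other is in section 3), where the triangles lie below most of the circles.

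The level of a locus in a library was taken as the mean over its shared tiles, those measured in all 23 remaining libraries, which are 62 tiles for Tcra/Tcrd, 12 for Tcrb and 8 for Tcrg. These levels are given with the SD over libraries and with no p-value, since the loci were chosen with results of these data known.

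Tcra/Tcrd, which encodes the alpha and delta chains, stood at about the same level throughout. In follicular cells it averaged 85.4 ± 0.585% in DKO, 85.3 ± 0.466% in Tet2KO, 85.4 ± 0.571% in Tet3KO and 84.5 ± 0.698% in WT (SD, n = 3 each). In pro-B cells it averaged 85.6 ± 0.234% in DKO, 85.7 ± 1.03% in Tet2KO and 84.4 ± 1.26% in WT (n = 3 each), and 85.3 ± 0.746% in Tet3KO (n = 2). The follicular WT libraries stood at 84.6, 83.7 and 85.1%, and the pro-B WT libraries at 82.9, 85.0 and 85.1%, so the groups overlapped and the difference was 0.0951 points (SE 0.829). The pro-B DKO libraries, at 85.8, 85.7 and 85.3%, all lay above those pro-B WT libraries, by 1.24 points on average (SE 0.737). The difference was 0.512 points without pro-B WT library 1 and 0.0603 points with each library centred, and over all autosomal shared tiles it was 1.18 points. In the flanks of the locus the same pro-B comparison gave a difference of 2.67 points, also without overlap.

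Along Tcra/Tcrd sections 1 to 3 were near saturation and section 4 was lower. In follicular WT cells the sections averaged 89.6, 93.0, 91.4 and 70.5% over 17, 12, 13 and 20 shared tiles, and in pro-B WT cells 89.4, 91.4, 92.7 and 70.4%. The lower mean of section 4 came from a few unmethylated tiles, since its median over tiles stood between 85.3 and 93.1% in the 23 libraries. The 3 lowest tested tiles of the locus all lie there: chr14:54847301-54847400 was at 0 in every library with a value, its neighbour chr14:54847201-54847300 averaged 0.16% and chr14:54679601-54679700 averaged 0.66% over the 8 groups. No gene is assigned to them, since the annotation at hand is of the other assembly.

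Tcrg, which encodes the gamma chain, was high in every group and varied by a few points. Its level averaged 86.9 ± 2.11% in follicular DKO, 87.6 ± 0.731% in follicular Tet2KO, 85.9 ± 0.745% in follicular Tet3KO and 88.2 ± 0.829% in follicular WT (SD, n = 3 each). In pro-B cells it averaged 89.8 ± 2.87% in DKO, 88.7 ± 0.705% in Tet2KO, 92.2 ± 0.468% in Tet3KO (n = 2) and 89.1 ± 0.573% in WT (n = 3 unless given). The order of groups at Tcrg is within the spread for most neighbours, and over these tiles only Tet3KO stood apart from WT. The follicular Tet3KO libraries, at 85.3, 86.7 and 85.6%, lay below the follicular WT libraries at 87.9, 89.1 and 87.6%. The pro-B Tet3KO libraries, at 91.9 and 92.5%, lay above the pro-B WT libraries at 89.2, 88.5 and 89.6%. The follicular minus pro-B difference was thus -6.33 points within Tet3KO (SE 0.543, n = 3 against 2), against -0.862 points within WT (SE 0.582). All of this rests on 8 tiles in 3 short clusters. Most of the Tet3KO difference came from 1 cluster, with -17.5 points at chr13:19357401-19357500, -15.2 at chr13:19357501-19357600 and -15.1 at chr13:19357701-19357800. The remaining tiles differed by -1.325 to 0.256 points. In DKO the 3 tiles named differed by -10.6, -11.9 and 7.31 points between the stages. An additive fit of tiles and libraries over 37 Tcrg tiles, added after these levels were seen, gave smaller Tet3KO differences of -1.50 points from WT in follicular cells, 1.15 points from WT in pro-B cells and -1.48 points between the stages, and the libraries overlapped in each.

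The lowest Tcrg tiles by mean over groups were chr13:19357701-19357800 (77.8%), its neighbour chr13:19357601-19357700 (82.2%) and chr13:19390701-19390800 (83.2%), all in section 3. The first of these stood at 85.1, 72.6 and 65.1% in follicular DKO, against 77.7, 78.3 and 78.4% in follicular WT, and at 79.5, 76.9 and 44.4% in pro-B DKO, against 100, 84.2 and 77.0% in pro-B WT. The DKO values thus spread more widely than those of WT in follicular cells and included 1 low library in pro-B cells.

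**Figure D2:**
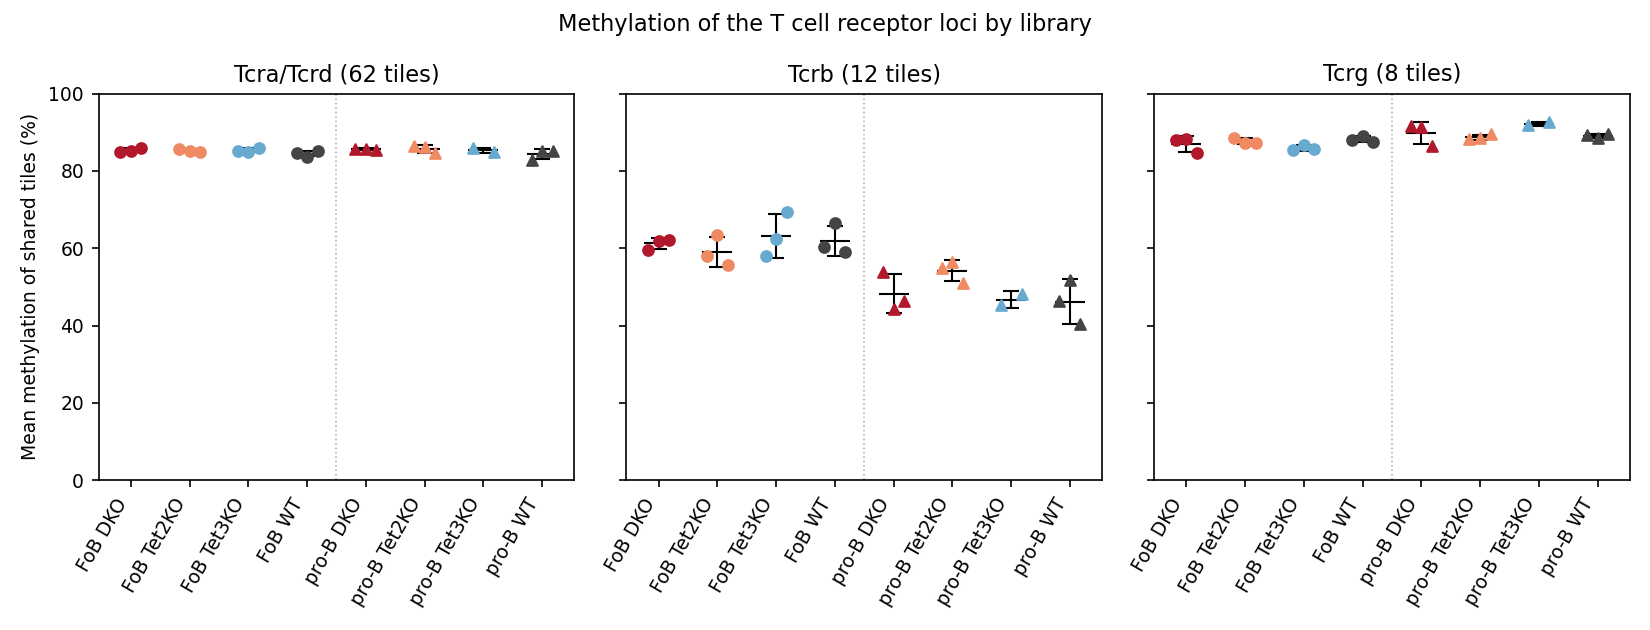
Mean methylation (%, vertical axis, from 0) of the shared tiles of Tcra/Tcrd, Tcrb and Tcrg in each library, by group along the horizontal axis. Circles are follicular and triangles pro-B libraries, dashes are group means and error bars are SD over 3 libraries (2 for pro-B Tet3KO). Tcra/Tcrd and Tcrg stay above 80% in every library, whereas Tcrb stands at 55.7 to 69.3% in follicular and 40.3 to 56.5% in pro-B libraries.

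Tcrb, which encodes the beta chain, was the locus where the stages differed most. It stood at 60.3, 66.4 and 58.9% in the follicular WT libraries, against 46.4, 51.9 and 40.3% in the pro-B WT libraries. The groups did not overlap, and the follicular mean was 15.7 points higher (SE 4.05, n = 3 each). In DKO it stood at 59.7, 62.0 and 62.1% in follicular libraries against 53.9, 44.4 and 46.4% in pro-B libraries, 12.98 points higher (SE 2.99), again without overlap.

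The single knockouts gave different sizes. In Tet3KO the Tcrb level was 58.0, 62.3 and 69.3% in follicular libraries against 45.2 and 48.2% in pro-B libraries, 16.5 points higher (SE 3.62) and without overlap. In Tet2KO it was 58.0, 63.4 and 55.7% in follicular libraries against 54.98, 56.5 and 51.1% in pro-B libraries, 4.82 points higher (SE 2.79), and the groups overlapped. Leaving out 1 library in turn gave 2.63 points (without follicular Tet2KO library 17) to 6.49 points. The sexes and ages of the follicular and pro-B libraries were the same within WT, Tet2KO and DKO. In Tet3KO the pro-B libraries used here were from males only and the follicular ones from both sexes. The labels do not say whether the libraries of the stages came from the same mice, so libraries were not paired. The pro-B Tet2KO mean of 54.2 ± 2.76% was the highest of the pro-B groups, 8.01 points above pro-B WT (SE 3.70), yet 1 WT library lay inside the Tet2KO range. In follicular cells no knockout group separated from WT at Tcrb, the differences being -0.653 points for DKO, -2.87 for Tet2KO and 1.30 for Tet3KO.

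Values elsewhere bear on the size of the Tcrb difference. In the flanks of Tcrb, over 30 shared tiles, follicular WT and pro-B WT libraries averaged 24.1 and 24.5%. Those flanks are not matched for level, since 5 of their 57 tested tiles were intermediate, against 9 of 17 in Tcrb. Over all autosomal shared tiles of intermediate level (20 to 80%) the follicular libraries stood at 49.2 to 57.1% (median 51.9%), and the pro-B libraries at 41.2 to 56.1% (median 45.5%), so a lower pro-B level was not confined to Tcrb. An additive fit of tiles and libraries over every Tcrb tile with a value gave smaller differences, of 6.48 points in WT and 6.64 points in DKO. That fit covered 87 tiles in place of the 12 shared ones. Of the 70 untested Tcrb tiles with a value, 56 averaged 80% or more. The part of the tile set in the smaller differences was not tested. The median over the 12 shared tiles turned the Tet2KO difference to -2.71 points.

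The number of tiles with a value also differed between stages. Follicular libraries had values at 42 to 67 Tcrb tiles and pro-B libraries at 29 to 68. The pro-B libraries with the highest Tcrb levels, Tet2KO library 5 (56.5%) and Tet2KO library 4 (54.98%), had 68 and 62 tiles, and the lowest, WT library 3 (40.3%), had 44. The follicular library with the fewest Tcrb tiles, Tet3KO library 21 with 42, had the highest level of all (69.3%). At the 17 tested Tcrb tiles 24 of 203 follicular values (11.8%) were exactly 0 or 100%, against 67 of 178 pro-B values (37.6%), as can happen where a value rests on few reads. With only libraries that had values at 400000 or more tiles the WT difference was 15.8 points and the DKO difference 12.1 points, but the part of depth in the result was not otherwise tested.

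**Figure D3:**
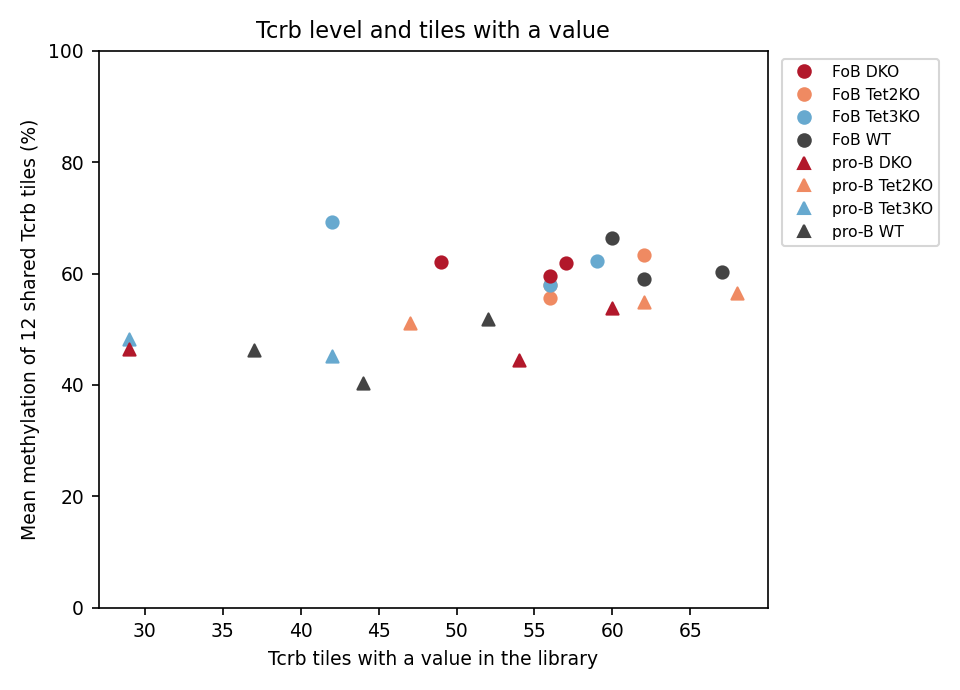
Mean methylation (%) of the 12 shared Tcrb tiles in each library, on the vertical axis from 0, against the number of Tcrb tiles with a value in that library. Circles are follicular and triangles pro-B libraries, coloured by genotype. At 42 to 68 tiles the circles lie at 55.7% or more and the triangles between 40.3 and 56.5%.

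The Tcrb difference was spread over 2 places. In section 4, over 8 shared tiles, follicular WT libraries averaged 56.8 ± 4.76% and pro-B WT libraries 37.7 ± 9.61% (SD, n = 3 each). Over all genotypes the follicular libraries stood at 50.8 to 66.5% there and the pro-B libraries at 28.9 to 51.2%. In section 3, over 3 shared tiles, follicular WT averaged 93.6 ± 1.79% and pro-B WT 82.9 ± 6.33%. In Tet2KO section 3 averaged 89.6% in follicular and 84.8% in pro-B libraries, without overlap. Section 4 averaged 54.2 and 48.9% in Tet2KO, with overlap. In DKO and Tet3KO the stages did not overlap in either section.

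Of the 10 tested tiles of section 4, 5 form a cluster at chr6:41493501-41494000 and 2 adjoin at chr6:41477301-41477500. The tile with the largest difference in WT, chr6:41493601-41493700, stood at 48.8, 60.9 and 46.1% in follicular WT libraries, against 0, 18.2 and 5.41% in pro-B WT libraries. It was 44.1 points higher in follicular cells (SE 10.7), without overlap, but with an adjusted p of 0.112 by limma over all tested tiles. On the logit scale the adjusted p was 0.0402. In Tet2KO the same tile stood at 40.4, 40.5 and 41.3% in follicular libraries, against 37.9, 65.6 and 25.0% in pro-B libraries, and the stages overlapped.

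Its neighbour chr6:41493501-41493600 stood at 52.8, 46.7 and 28.9% in follicular WT libraries, against 0 and 0% in the 2 pro-B WT libraries with a value. Over all genotypes 0 of 11 follicular libraries were listed at 0, against 7 of 9 pro-B libraries. The 42.8-point difference in WT had an adjusted p of 0.335 (limma), and that in DKO, of 54.0 points, one of 0.204. The 2 pro-B libraries with methylation at this tile were Tet2KO library 5 (60.3%) and Tet2KO library 4 (26.9%), the pro-B libraries with most Tcrb tiles.

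The tile chr6:41477301-41477400 stood at 39.6, 26.7 and 47.4% in follicular WT libraries, against 0 in all 3 pro-B WT libraries. In the other genotypes the pro-B libraries did not form 1 level: they ran from 0 to 82.7%, with 2 more at 0 (1 of Tet3KO and 1 of DKO). Its adjusted p in WT was 0.624 (limma).

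The remaining tiles of the cluster were higher in follicular WT by smaller amounts, 14.9 to 22.2 points. At chr6:41493701-41493800, among the 3 lowest Tcrb tiles by mean, the follicular libraries of all genotypes kept to 33.2 to 51.9%, with a median of 44.4%. The pro-B libraries there ran from 0 to 59.7%, with a median of 17.2%. At chr6:41493901-41494000 the follicular DKO libraries stood at 31.7, 43.0 and 39.4%, below the follicular WT libraries at 63.6, 43.5 and 46.0%, a difference of -12.97 points with an adjusted p of 1 (limma), and of -6.69 points without follicular WT library 13. It was the only Tcrb tile at which follicular DKO and WT libraries did not overlap.

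**Figure D4:**
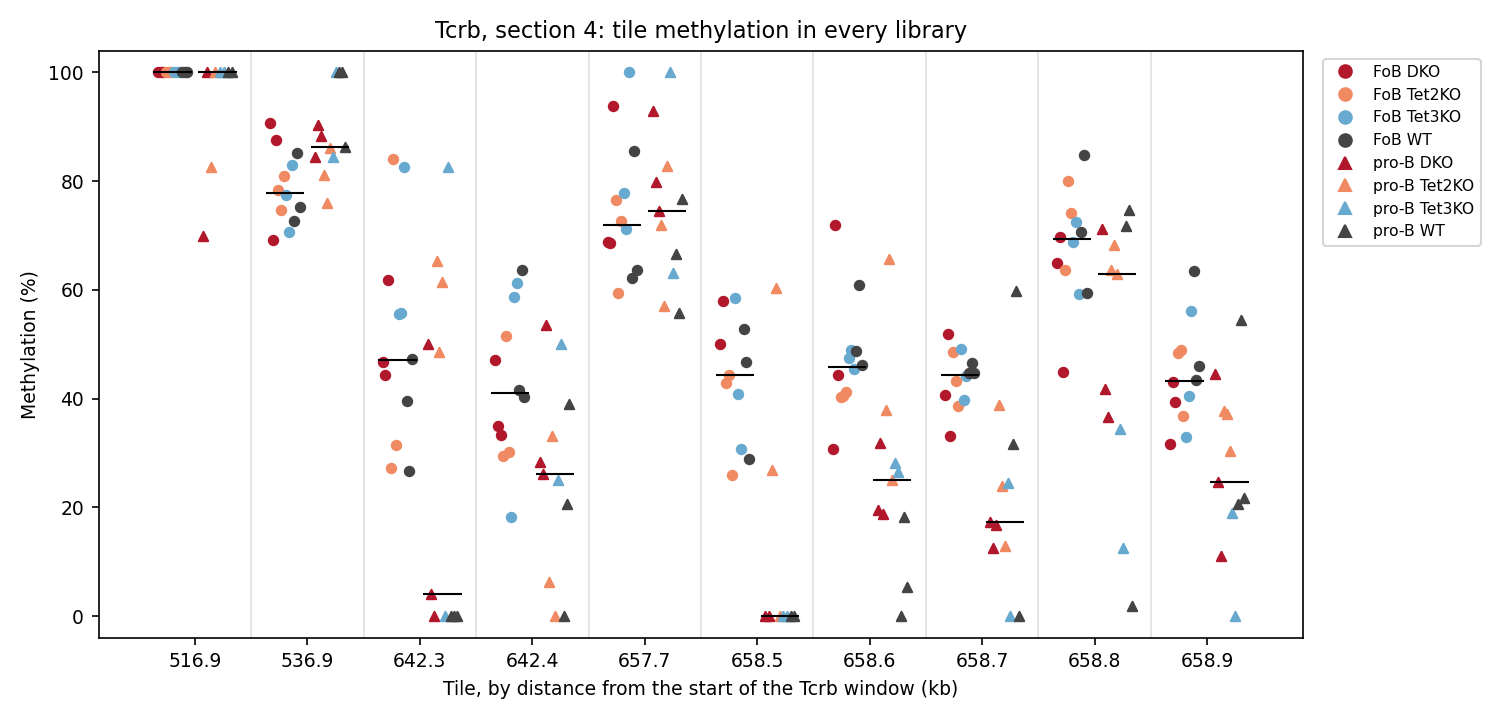
Methylation (%, vertical axis) of the 10 tested tiles of section 4 of Tcrb, placed in order and labelled by distance in kb from the window start. Each point is a library (circles follicular, left; triangles pro-B, right; colours for genotype), and bars are medians over the libraries of a stage. At the tiles 642.3 and 658.5 kb from the start most triangles lie at or near 0 and every circle at 25.9% or more.

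The second place is a pair of tiles in section 3 of Tcrb, chosen after their values were seen. At chr6:41276901-41277000 the follicular WT libraries stood at 96.5, 96.2 and 97.4%, against 84.8, 73.8 and 86.1% in pro-B WT. The follicular DKO libraries stood at 96.8, 97.8 and 98.6%, against 88.9, 77.1 and 78.9% in pro-B DKO. The differences of 15.1 points in WT (SE 3.43) and 16.1 points in DKO had adjusted p-values of 0.0832 and 0.0520 (limma), just above the threshold, and both were under the 20 points asked of a called tile. At the adjoining chr6:41276801-41276900 the stages differed by 20.4 points in WT, 27.9 in DKO and 38.6 in Tet3KO, with adjusted p-values of 0.483, 0.204 and 0.0745 (limma). The Tet3KO difference was called with each library centred (36.8 points, adjusted p 0.0126) and without pro-B Tet3KO library 9 (50.9 points, adjusted p 0.0177). In Tet2KO the pair differed by 4.48 and 6.06 points, and the stages overlapped at both tiles.

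A few Tcrb tiles went the other way or showed little difference. At chr6:41371901-41372000 follicular WT libraries stood at 72.7, 85.3 and 75.3%, against 100, 100 and 86.4% in pro-B WT, a difference of -17.7 points with an adjusted p of 0.290 (limma). The tiles chr6:41193201-41193300 and chr6:41152801-41152900 were lower in follicular WT without overlap, with differences of -1.89 and -1.64 points, and both were near 100% in each stage. The lowest Tcrb tile, chr6:41087001-41087100 in section 2, averaged 4.76%, with 2 of 12 follicular and 9 of 11 pro-B libraries at 0.

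In the tests across all tiles calling a tile took an adjusted p (Benjamini-Hochberg) under 0.05 together with a difference of at least 20 points in its level. No T cell receptor tile was called in any of the 10 comparisons between stages or genotypes (limma, 117 tiles in each). The background was low as well. In follicular cells the percentage of all 200813 tested tiles called was 0.129 in DKO against WT, 0.00299 in Tet2KO against WT and 0.00996 in Tet3KO against WT. In pro-B cells it was 0.231 in DKO, 0.0687 in Tet2KO and 0.421 in Tet3KO against WT. Between follicular and pro-B cells it was 0.168 in DKO, 0.0563 in Tet2KO, 0.417 in Tet3KO and 0.181 in WT. At those shares fewer than 1 of 117 tiles would be called, so a count of 0 lies near the background.

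At an unadjusted p under 0.05 the T cell receptor windows held 4 tiles for follicular DKO (3.42%, against 5.82% of all tested tiles), 2 for follicular Tet2KO (1.71%, against 2.87%) and 6 for follicular Tet3KO (5.13%, against 3.96%), each compared with follicular WT. Compared with pro-B WT the same count was 21 for pro-B DKO (17.9%, against 8.83%), 17 for pro-B Tet2KO (14.5%, against 6.76%) and 14 for pro-B Tet3KO (12%, against 10.3%). Between the stages it was 22 in DKO (18.8%, against 9.76%), 7 in Tet2KO (5.98%, against 5.96%), 22 in Tet3KO (18.8%, against 11.9%) and 17 in WT (14.5%, against 8.50%). The shares for pro-B Tet3KO and for the stages in Tet2KO thus lay near those of all tested tiles. Without overlap, 6 tiles were higher and 5 lower in follicular Tet2KO than in WT (background 4.63% and 2.84%), and 8 higher and 1 lower in follicular Tet3KO (background 6.00% and 2.58%). In pro-B cells 14 were higher and 7 lower in Tet2KO than in WT (background 4.39% and 2.97%), and 10 higher and 6 lower in Tet3KO (background 5.77% and 4.19%). None of these backgrounds was matched for level. Of all tested tiles 55.5% were under 20%, against 4.27% of those in the windows. For pro-B DKO against WT, 13.1% of intermediate autosomal tiles and 5.43% of those at 80% or more were higher without overlap, against 4.74% of all. The part of tile level in these shares was not tested.

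Libraries that did not overlap were counted for the stages. At Tcrb 6 of 17 tiles were higher in follicular WT without overlap and 3 were lower, against a background of 9.37% higher and 6.76% lower. In Tcrb of DKO cells 5 were higher in follicular cells and 0 lower, against 7.02% and 5.14%. In Tet3KO 7 were higher and 1 lower, against 12.2% and 8.46%, and in Tet2KO 0 were higher and 1 lower, against 6.81% and 4.47%. Set beside tiles of like level, all 9 intermediate Tcrb tiles were higher in follicular WT than in pro-B WT, by a median of 22.2 points, against 64.6% of 23250 intermediate autosomal tiles with a median of 5.67 points. In DKO 8 of the 9 were higher in follicular cells, by a median of 25.6 points against 4.86. In Tet3KO all 9 were higher, by 32.1 points against 9.18, and in Tet2KO 6 were higher, by 7.62 points against 2.83.

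At Tcra/Tcrd the stage counts were 9 higher and 7 lower of 92 in follicular WT against pro-B WT, near the background. In DKO 4 were higher and 14 lower (15.2% lower, against 5.14% of all tested tiles), and in Tet3KO 12 were higher and 19 lower (20.7% lower, against 8.46%). Among tiles at 80% or more the lower share was 13.2% in DKO, against 12.4% of such autosomal tiles, and 23.7% in Tet3KO, against 19.9%. In Tet2KO 4 were higher and 9 lower, against 6.81% and 4.47%, and among tiles at 80% or more 10.5% were lower, against 9.7% of such autosomal tiles. The tiles named for this comparison had differences with adjusted p-values of 0.234 or more (limma). The largest was at chr14:54360601-54360700, in section 3, with 93.4, 86.7 and 96.2% in follicular WT libraries against 75.0 and 38.7% in the 2 pro-B WT libraries with a value. The difference of 35.2 points came to 17.1 points without pro-B WT library 3 and 53.4 points without pro-B WT library 2. The next was at chr14:53512101-53512200, described below with its neighbours. The third, at chr14:54191401-54191500, was 8.42 points higher. Lower in follicular WT were chr14:53983301-53983400 with a difference of -25.0 points, chr14:53175101-53175200 with -11.6 points and chr14:54555701-54555800 with -11.1 points.

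At Tcrg 1 tile was higher and 1 lower in follicular WT without overlap, chr13:19357601-19357700 with a difference of 10.3 points and chr13:19390701-19390800 with one of -5.75 points, with adjusted p-values of 0.717 and 0.747 (limma). In DKO and in Tet3KO 3 of 8 Tcrg tiles each were lower in follicular than in pro-B libraries without overlap and 0 were higher. The background was 5.14% lower in DKO and 8.46% in Tet3KO over all tested tiles. Among the 7 Tcrg tiles at 80% or more, 3 were lower in DKO and 2 in Tet3KO. The shares of such autosomal tiles were 12.4% and 19.9%. The 3 Tet3KO tiles all lay in 1 cluster, chr13:19357401-19357800.

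Between genotypes, the tiles of Tcra/Tcrd with most difference were intermediate ones in section 2. Over the 12 Tcra/Tcrd tiles with a mean of 20 to 80%, pro-B DKO stood above pro-B WT by a median of 22.7 points. Of these 12, which were not all in section 2, 11 were higher and 6 were higher without overlap. The 6 include both pairs of neighbours described below. Whether those pairs share reads was not tested, so they may not count as separate tiles. Of 23250 intermediate autosomal tiles 63.8% were higher and 13.1% higher without overlap, with a median difference of 5.48 points. Over the 76 Tcra/Tcrd tiles at 80% or more the median difference was 0.0457 points, and 50.0% were higher. Counting all 92 tiles, 13 were higher in pro-B DKO without overlap and 4 lower, against a background of 4.74% higher and 2.43% lower. The 12 intermediate tiles also stood above pro-B WT in pro-B Tet2KO, by a median of 11.6 points (10 of 12 higher), against 4.04 points over intermediate autosomal tiles. In pro-B Tet3KO the median was 9.25 points (10 of 12 higher), against 0.251 points. Follicular WT stood above pro-B WT by a median of 7.36 points (9 of 12 higher), against 5.67 points.

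These intermediate tiles included 2 pairs of neighbours that lie 310900 bp apart, at chr14:53512001-53512200 and chr14:53822901-53823100, singled out after their values were seen. At chr14:53512001-53512100 the pro-B DKO libraries with a value stood at 96.5 and 98.4%, against 56.5, 73.7 and 44.1% in pro-B WT, 39.4 points higher (SE 8.52) with an adjusted p of 0.0721 (limma), or of 0.0110 on the logit scale. At chr14:53512101-53512200 they stood at 70.5 and 66.7%, against 0, 38.1 and 14.4% in pro-B WT, 51.1 points higher (SE 11.5) with an adjusted p of 0.0878. The groups did not overlap at either tile, and neither was called.

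The second pair showed the same direction. At chr14:53822901-53823000 pro-B DKO libraries stood at 100 and 97.4%, against 53.5, 87.2 and 49.0% in pro-B WT. At chr14:53823001-53823100 they stood at 61.4 and 77.8%, against 0, 61.1 and 15.1% in pro-B WT. The differences were 35.5 and 44.2 points, with adjusted p-values of 0.223 and 0.302 (limma). Both pairs depend on the pro-B WT libraries in the same way, with library 2 the highest and libraries 1 and 3 low. Leaving out pro-B WT library 2 brought all 4 tiles past the threshold, with differences of 47.2 to 62.0 points and adjusted p-values of 0.00950 to 0.0126, on 2 libraries against 2.

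The spacing of the 2 pairs was looked at further. With tested tiles of the Tcra/Tcrd window joined into runs, 2 pairs of runs were spaced 310900 bp apart and 2 were spaced 311000 bp apart. Counted together, as neighbouring spacings, they make 4, against 3 for the next most common spacing counted in the same way. The V segments of this locus are known to occur in duplicated blocks in the mouse, and in RefSeq many Trav names come in copies marked d and n. Reads from near-identical copies can be split or misplaced by alignment, so the levels at these tiles are uncertain and whether the pairs share reads was not tested. Not all tiles at this spacing had like levels, as in a further pair singled out after its values were seen: chr14:53482301-53482400 averaged 86.2% in pro-B DKO against 44.8% in pro-B WT, and its counterpart chr14:53793301-53793400 averaged 53.3% in pro-B DKO against 84.7% in pro-B WT. No sequence was at hand in the mm9 build to compare them.

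In follicular cells the same tiles differed less. At chr14:53512001-53512100 follicular DKO libraries stood at 89.5, 93.8 and 72.8%, against 68.0, 69.7 and 62.0% in follicular WT, 18.8 points higher without overlap, with an adjusted p of 0.673 (limma). At chr14:53823001-53823100 they stood at 62.5, 80 and 75.0%, against 58.1, 59.7 and 41.8% in follicular WT, 19.3 points higher with an adjusted p of 0.947. The third tile with a higher level in follicular DKO, chr14:54796001-54796100 in section 4, was 16.7 points higher with an adjusted p of 1, and blocking by strata of sex and age turned this to -2.78 points. Tiles lower in follicular DKO by the same rule were chr14:53231601-53231700 (-8.88 points), chr14:53102201-53102300 (-5.16 points) and chr14:54360701-54360800 (-4.94 points).

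**Figure D5:**
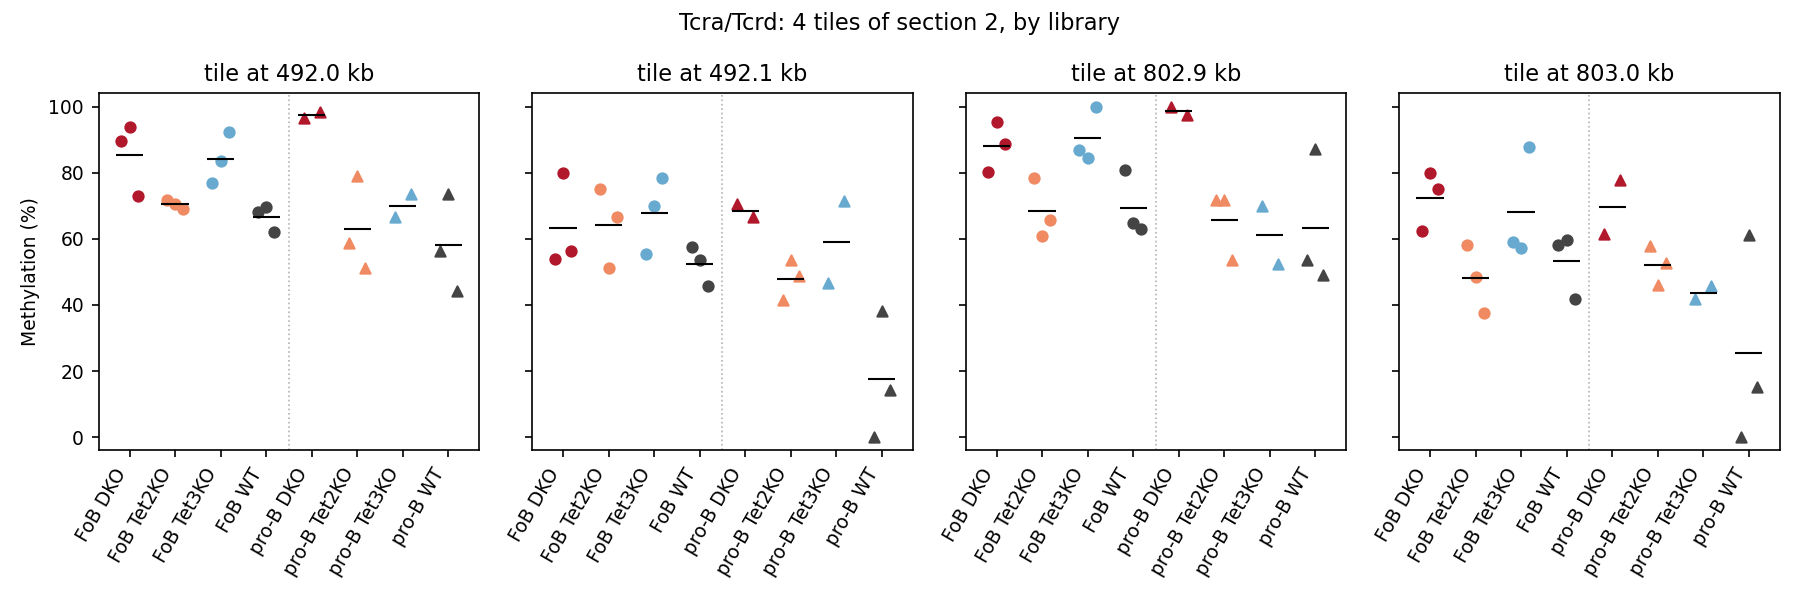
Methylation (%, vertical axis) of 4 Tcra/Tcrd tiles in every library by group, each panel titled by the distance of the tile from the window start in kb. Circles are follicular and triangles pro-B libraries, and bars are group means. In pro-B DKO both libraries with a value lie above every pro-B WT library, and 2 of 3 pro-B WT libraries lie lowest of all at the tiles 492.1 and 803.0 kb from the start.

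A single Tcra/Tcrd tile, chosen after its values were seen, passed the adjusted threshold in any comparison without reaching 20 points. At chr14:53433001-53433100, in section 1, pro-B DKO libraries stood at 82.0, 76.8 and 91.7%, against 62.5, 68.3 and 65.2% in pro-B WT. The difference was 18.2 points (SE 3.70), with an adjusted p of 0.0482 (limma) and no overlap. Without pro-B DKO library 11 it was 21.5 points, with an adjusted p of 0.0104, which is a call. In follicular cells the tile stood at 72.2, 70.5 and 81.0% in DKO, against 66.9, 78.5 and 76.2% in WT, and the groups overlapped.

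At Tcrb the tile chr6:41477301-41477400, singled out here after its values were seen, stood at 55.6, 55.8 and 82.6% in follicular Tet3KO, against 39.6, 26.7 and 47.4% in follicular WT, 26.8 points higher (SE 18.9) and without overlap, with an adjusted p of 1 (limma). The only follicular DKO tile at Tcrg without overlap was chr13:19407001-19407100, with a difference of -4.79 points and an adjusted p of 0.628 (limma). Across the 3 loci 8 tiles were higher and 8 lower in follicular DKO than in follicular WT without overlap, against a background of 7.10% higher and 2.54% lower. The median difference over the 117 tiles was 0.0230 points, against 0.106 points over all tested tiles.

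Whether the change between stages differed between genotypes was tested tile by tile in the same limma fit. No T cell receptor tile passed for DKO, Tet2KO or Tet3KO against WT, and the lowest adjusted p-values were 0.338, 0.900 and 0.301. At an unadjusted p under 0.05 there were 10, 10 and 7 of 117 tiles (8.55, 8.55 and 5.98%), against 5.52, 3.93 and 6.34% of all tested tiles. At the Tcrb tile chr6:41493601-41493700 the follicular minus pro-B difference in Tet2KO minus that in WT was -46.2 points, with an unadjusted p of 0.00757 and an adjusted p of 1. The smaller Tcrb stage difference in Tet2KO is therefore not shown to differ from that in WT.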

How the data were processed

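RRBS libraries of follicular and pro-B cells were grouped by the titles' stage and genotype, 3 per group and 24 in all. A further 16 RNA samples were not analysed here. The authors deposited a methylation fraction from 0 to 1 per 100 bp tile and library, with no read counts, so no counting interval could be given. Per the submitters' processing notes Trim Galore and methylKit were used with the builds mm9 and hg19. Not given in the sources used here are the aligner, any minimum of coverage and the conversion rate. Coordinates are taken as mm9, since chromosome 1 reaches 197193600, and are 1-based.

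Fractions were multiplied by 100. Limma 3.58.1 (R 4.3.3) was fitted per autosomal tile to the 8 groups, using all 24 libraries together (up to 16 residual degrees of freedom), with Benjamini-Hochberg adjustment over the 200813 tiles measured in 2 or more libraries per group. The planned count model did not apply to fractions. Pro-B Tet3KO library 8 entered the tile fits where it had values. A missing value was left out, never imputed. The fit was tested on simulated data.

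The windows, the members and the lists were chosen with earlier results of these data known. Tiles were named if called, if among the 3 largest differences per locus and direction in follicular DKO against WT and in follicular WT against pro-B WT among tiles whose libraries did not overlap, or if among the 3 lowest means of a locus; others named are said to be chosen after their values were seen. Alternatives were another tile set, the logit scale, fits of the compared groups only, sex, sex and age strata as a block, centring of libraries, other minimum differences, and each library left out in turn.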

Additional observations from a re-analysis of the deposited data

Results flagged for a closer look

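The Tcrg level differed from WT in opposite directions in Tet3KO cells of the 2 stages. The difference was -2.34 points for follicular Tet3KO against follicular WT libraries (85.9 against 88.2%), and 3.13 points for pro-B Tet3KO against pro-B WT libraries (92.2 against 89.1%, n = 2 against 3), without overlap in either. The follicular difference minus the pro-B difference was -5.47 points. This difference was not tested as a level, and no Tcrg tile passed the tile-by-tile test of it. In the additive fit over 37 Tcrg tiles it was -2.65 points, from -1.50 in follicular and 1.15 in pro-B cells, and the Tet3KO and WT libraries overlapped in both stages. Tet3KO and WT also differed in age, at 7 weeks against 6 or 8, and the pro-B Tet3KO libraries used were from males only. The part of age and sex in these levels was not tested.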

How the results depend on the processing

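The count of called T cell receptor tiles stayed at 0 under 126 of 140 alternatives. It was 1 in pro-B DKO against WT with no minimum difference and 1 on the logit scale, 1 in follicular against pro-B WT on the logit scale, and 1 in follicular against pro-B Tet3KO with libraries centred. With sex and age strata as a replicate block it was 0 in all 10 comparisons, and 54796001 in follicular DKO against WT turned to -2.78 points. Replicate numbers were not shared between groups. This block adjusts for sex and age and does not pair the stages, since a stratum can hold several libraries of a group and several genotypes. Leaving out 1 library gave 0 to 4 tiles in pro-B DKO against WT (4 without WT library 2, 3 without DKO library 11) and 0 to 4 in pro-B Tet3KO against WT (4 without Tet3KO library 7, 1 each without Tet3KO library 9, WT library 2 or WT library 3). It gave 0 to 2 between stages in Tet3KO (2 without pro-B library 7, 1 without pro-B library 9), 0 to 2 in DKO (2 without pro-B library 11) and 0 to 1 in WT (1 without pro-B library 2). A group left with 1 value at a tile was then assumed to vary like the others.

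Of 179 alternatives of the level differences, 150 moved them by less than the SD. With each library centred, Tcra/Tcrd gave -0.217 points in follicular DKO against WT, 0.0603 in pro-B DKO against WT, -1.10 between stages in WT and -1.38 in DKO, and Tcrg gave -2.06 between stages in WT. With the wider tile set Tcra/Tcrd gave 3.37 in pro-B DKO against WT and 1.72 between stages in WT. The additive fit gave 2.18 for Tcra/Tcrd in pro-B DKO against WT. Between stages it gave, for Tcrb, 6.48 in WT, 6.64 in DKO, 1.06 in Tet2KO and 7.01 in Tet3KO, and for Tcrg 1.16 in WT, -0.0702 in DKO and -1.48 in Tet3KO. For Tcrg in Tet3KO against WT it gave -1.50 in follicular and 1.15 in pro-B cells, where the median over tiles gave -3.83 and 5.07 (-12.5 between stages) and centring gave -3.14 in follicular cells (-8.13 between stages). With the median over tiles Tcrb gave -4.07 in follicular DKO against WT, and -2.71 in Tet2KO and 22.3 in Tet3KO between stages, and Tcrg gave 1.33 and 4.79 in follicular and pro-B DKO against WT, and -3.65 in WT and -7.10 in DKO between stages. The causes were not tested. Leaving out 1 library kept the Tcrb stage difference between 12.8 and 18.5 points in WT and between 11.1 and 15.8 in DKO, and between 14.7 and 24.2 for its section 4 in WT. Of 296 alternatives at the 22 pairs of tile and comparison named by rule 294 kept direction and side of the threshold. Tiles in comparisons outside the rule crossed it, among them, as given beside them, 53433001, 53512001 and its 3 partners, and 41276801. Others crossed it only with 1 library left out, and are in the counts above. These were 41152801, 41351901, 41477301, 41493801, 53231601, 53796301 and 53983301. Leaving out 1 library also moved 53175101 to -6.35 (follicular WT library 15), 53231601 to -4.64 (DKO library 24), 54360701 to -2.28 (DKO library 22) and 19357601 to 4.73 (pro-B WT library 1). Values may rest on few reads, and 579 members could not be tested.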
